A study of Mus musculus with 12 samples.

Results

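The respiratory chain and the ATP synthase of mitochondria are built from many nuclear-encoded subunits, and 83 of the 17734 genes in the deposited table of mouse rectal RNA are such subunits. They were chosen by symbol alone (Nduf, Sdh, Uqcr, Cox4 to Cox8 and Atp5 genes), and all 83 had a mean of at least 0.1 FPKM, a unit scaled by transcript length and sequencing depth. By complex they are 38 genes of complex I by name (7 core and 31 accessory subunits, the latter including Ndufa4 and Ndufa4l2, whose products belong with complex IV), 4 of complex II, 8 of complex III, 16 of complex IV and 17 of the ATP synthase. None of the 13 subunits encoded by mitochondrial DNA has a row in the table, so only nuclear-encoded subunits were analysed here.

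RNA came from 12 male C57BL/6 mice aged 8 to 10 weeks. There were 3 mice in each of 4 groups: normal mice, normal mice receiving BBR, colitis mice and colitis mice receiving BBR. Dextran sulfate sodium (DSS), which damages the colonic epithelium, was given at 2.5% in drinking water over 7 days to induce the colitis. Berberine (BBR), a plant alkaloid known to inhibit complex I, was gavaged at 100 mg/kg, daily for 7 days according to the methods of the study and for 6 days according to the sample labels. The labels call the tissue colorectum and the methods call it rectum. The samples are whole tissue, in which fewer cells of a type and less RNA per cell cannot be told apart.

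Complex I takes electrons from NADH, complex II takes them from succinate in the citric acid cycle, complex III passes them on to cytochrome c, and complex IV hands them to oxygen. Complexes I, III and IV pump protons out of the mitochondrial matrix, and the ATP synthase uses their return to make ATP. Colonocytes depend strongly on this machinery because they burn butyrate made by gut bacteria. Several complex IV subunits occur as a ubiquitous and a tissue-restricted isoform, among them COX7A2 and its heart and muscle counterpart COX7A1.

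The libraries fell into 2 kinds that cut across the 4 groups. The 4 mice numbered 4, 1 in each group, had 872 to 1086 genes at 0 and column totals of 482194 to 504337 FPKM, against 1332 to 1926 genes at 0 and totals of 696286 to 765876 FPKM in the 8 mice numbered 1 to 3. The steps between low values showed a greater depth in the former, where 3 reads on a transcript of 2000 bases were worth 0.0761 to 0.0859 FPKM, against 0.107 to 0.125 FPKM in the latter. Colonocyte markers were present in every mouse, with mean levels of 8.83 to 10.2 on the log2(FPKM + 0.1) scale. Colitis mouse 4 receiving BBR stood apart from its group, with a granulocyte marker mean of -1.69, near the normal mice (-2.83 to -1.78) and below the 2 other colitis mice receiving BBR (1.28 and 0.98). The main values of the comparisons that use this group are therefore also given without it.

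The respiratory chain genes were among those that set the mice numbered 4 apart. Of the 83 subunit genes, 79 were lower in the mice numbered 4 than in the others, with a median log2 difference of -0.77, whereas the median over the 15315 tested genes was 0.23. Short transcripts tended to show the wider gap. Ndufa3, an accessory subunit of complex I with a median annotated transcript of 433 bases, stood at 1541, 1493 and 205 FPKM in normal mice 1, 3 and 4. Sdha, the flavoprotein of complex II with 1811 bases, stood at 177, 163 and 123 FPKM in the same mice. Over the 80 subunit genes with an annotated length, the difference followed log2 length with Pearson's r of 0.64 and Spearman's rho of 0.70, a description across genes that share the same libraries. Over the 14747 tested genes with a length these were 0.31 and 0.32. Cytosolic ribosomal protein genes, many of them also short, had a median difference of -0.59. The numbering came from the labels, and whether it marks a separate run of library preparation or sequencing was not tested. Each result below is therefore given with a block for the mice numbered 4 or within the mice numbered 1 to 3 where that changes it.

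**Figure D1:**
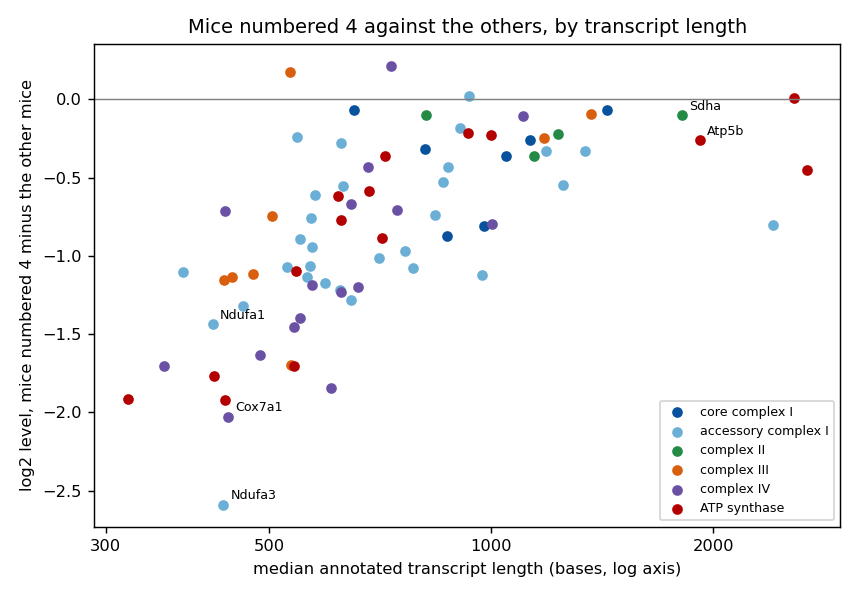
Each point is 1 of the 80 respiratory chain genes with an annotated transcript length; the horizontal axis is the median transcript length in bases (log axis) and the vertical axis the mean log2(FPKM + 0.1) of the 4 mice numbered 4 minus that of the 8 other mice. Ndufa3 at 433 bases lies far below 0 and Sdha at 1811 bases near 0, but the scatter is wide: Uqcrc1 at 533 bases lies at 0.17 and Ndufb2 at 2413 bases at -0.80.

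The complexes differed in level, with complex I and complex II below the others. In normal mouse 1 the median level was 173 FPKM over the core subunits of complex I, 237 over its accessory subunits, 239 over complex II, 593 over complex III, 631 over complex IV and 768 over the ATP synthase. In normal mouse 4 the same medians were 84.1, 100.5, 151, 233, 308 and 329 FPKM. Cox8a, a small structural subunit of complex IV, was the highest member in normal mouse 1 at 2851 FPKM. The lowest was Cox6a2, the heart and skeletal muscle counterpart of Cox6a1, at 0.85 FPKM. Levels within complex IV thus spanned a far wider range than the changes given below.

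**Figure D2:**
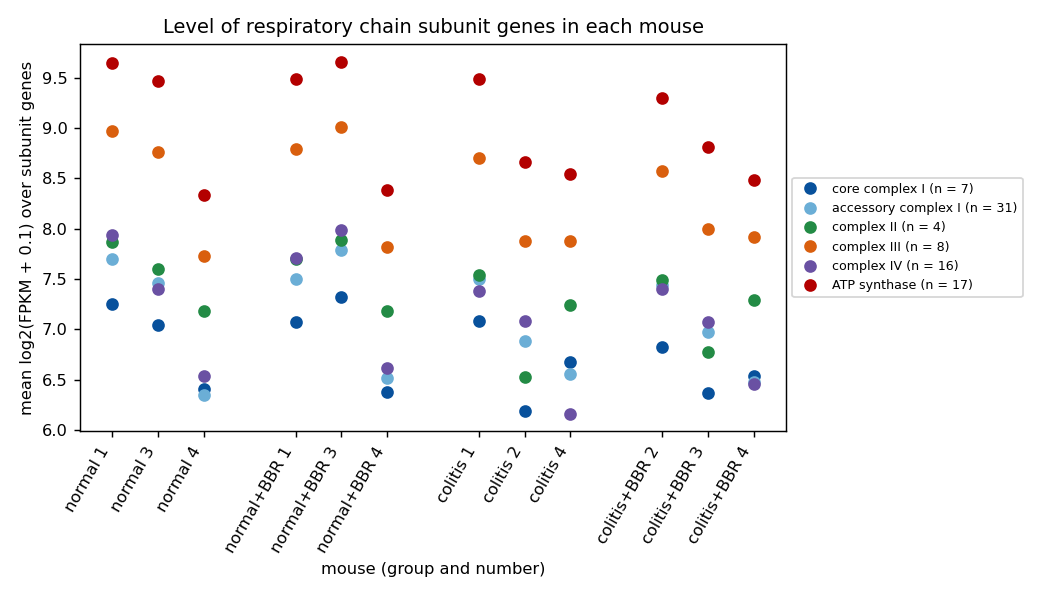
For each of the 12 mice (horizontal axis, group and number), points show the mean log2(FPKM + 0.1) over the genes of a complex. In all 4 groups the mice numbered 4 lie at or below the level of mice 1 and 3 of the normal groups, and colitis mouse 2 and colitis mouse 3 receiving BBR lie lower than the other mice numbered 1 to 3.

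Levels per mouse are given below in a fixed order: mice 1, 3 and 4 for both normal groups, mice 1, 2 and 4 for colitis mice, and mice 2, 3 and 4 for colitis mice receiving BBR. Tests are limma fits with trend on log2(FPKM + 0.1) over all 15315 tested genes, and adjusted p-values are Benjamini-Hochberg values over these genes with a limit of 0.05. The second limit is the unadjusted p of at most 0.05 that the methods of the study name. With 3 mice against 3, an exact two-sided permutation test cannot go below p = 0.1.

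Colitis against normal asked what DSS does to the respiratory chain transcripts. None of the 83 genes passed the adjusted limit in the fit without a block, where 0.653% of all tested genes passed as higher and 0.424% as lower. At the unadjusted limit 1 gene was lower, Cox6a2, and none was higher, against 15.9% of tested genes lower and 5.56% higher. All 3 colitis mice lay below all 3 normal mice for 2 genes, Cox4i2 and Cox6a2, and above them for none, against 22.2% and 7.1% of tested genes. The median log2 fold change was -0.24 over the 83 genes and -0.32 over all tested genes, and 71 of the 83 lay below 0 against 73.7% of all tested genes. When each mouse was centred on its median gene, the median of the 83 genes became 0.09. With quantile normalization it was -0.21 against -0.05 over all tested genes, and 71 of the 83 lay below 0 against 54.4% of all tested genes, so whether they lay below the rest of the table depended on the scaling. Leaving out each mouse in turn gave medians of -0.65 (without normal mouse 4) to 0.016 (without normal mouse 1), or with a block for the mice numbered 4 of -0.37 to 0.0007 (without colitis mouse 2).

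The complexes had similar medians. In colitis against normal the median log2 fold change was -0.31 over the core subunits of complex I, from Ndufs1 at -0.50 to Ndufs3 at -0.05, and -0.21 over the accessory subunits, from Ndufb4c at -0.53 to Ndufs4 at 0.26. It was -0.47 over complex II, from Sdha at -0.64 to Sdhd at -0.21. Over complex III it was -0.33, from Uqcrc1 at -0.75 to Uqcrq at 0.19, and over the ATP synthase -0.25. Complex IV had a median of -0.23, and its range reached from Cox7a1 at -1.88 to Cox8b at 0.12.

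The mice numbered 4 and the others gave different pictures of colitis. Among the mice numbered 1 to 3, the 2 colitis mice lay below both normal mice for 42 of the 83 genes and above them for none, while 52.3% of all tested genes were lower in this way and 13.7% higher. In the single pair of mice numbered 4, the colitis mouse was higher than the normal mouse for 70 of the 83 genes, or 84.3%, against 41.2% of all tested genes. For 9 genes both held in the lower direction (Ndufa1, Ndufa4, Ndufb4c, Sdha, Uqcrh, Cox4i2, Cox6a2, Cox7a1 and Cox7a2l), or 10.8%, against 36.6% of all tested genes. The median log2 difference of the 83 genes was -0.43 in the mice numbered 1 to 3 and 0.18 in the mice numbered 4, against -0.42 and -0.10 over all tested genes.

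With a block for the mice numbered 4, 2 of the 83 genes fell past the adjusted limit in colitis, Cox7a1 and Ndufa1, and none rose, while 6.42% of all tested genes passed as lower and 2.8% as higher. The share of the 83 genes was 2.41%. At the unadjusted limit with this block 3 genes were lower (Cox7a1, Ndufa1 and Cox6a2) and none higher, against 24.8% and 7.05% of tested genes. These calls were not stable. With the block, leaving out each of the 6 mice in turn gave Cox7a1 an adjusted p of 0.0479 to 0.138, under the limit only without colitis mouse 1, and gave Ndufa1 one of 0.0542 to 0.189. With the replicate number as a block the limma adjusted p was 0.0615 for Cox7a1 and 0.102 for Ndufa1.

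**Figure D3:**
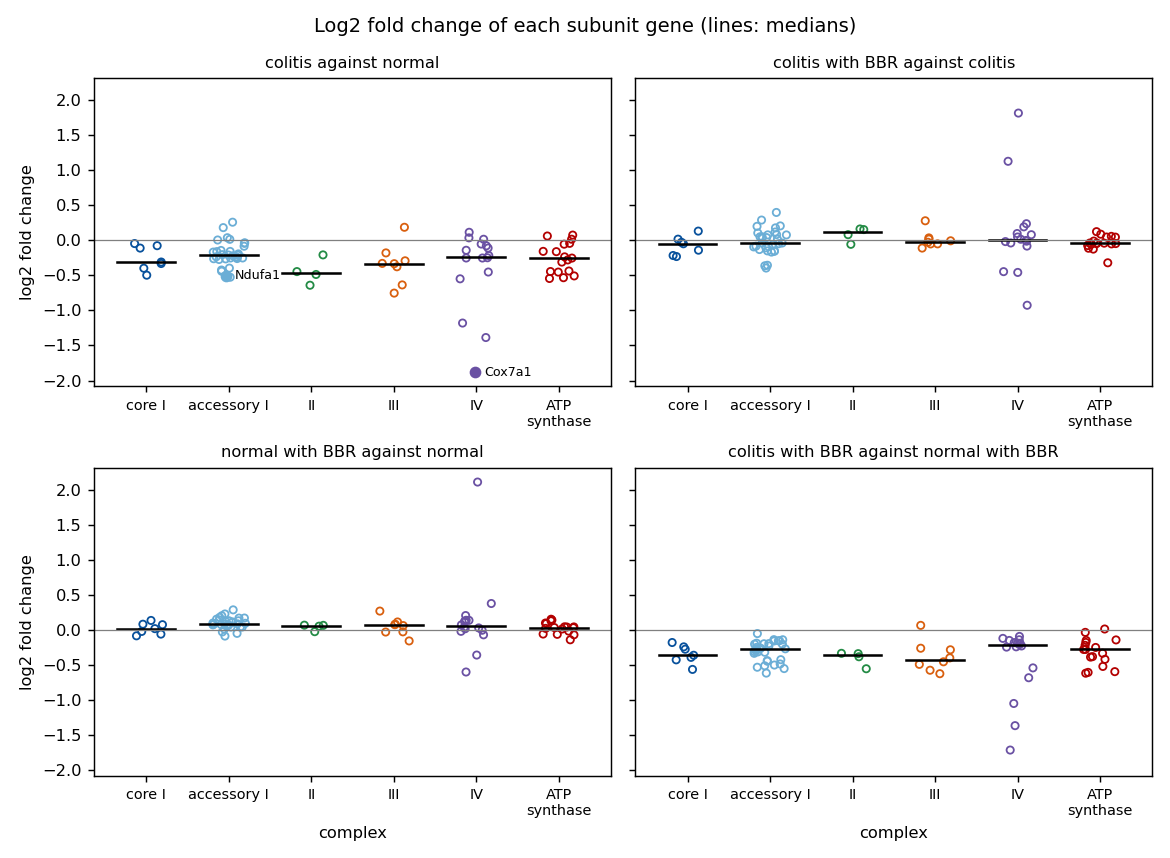
Each point is 1 of the 83 genes; the vertical axis is its log2 fold change in 4 comparisons (panels), the horizontal axis its complex, and black lines are medians. Filled points passed the adjusted limit with a block for the mice numbered 4, which only Cox7a1 and Ndufa1 did, both in colitis against normal.

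Ndufa1 encodes a small accessory subunit of complex I that is needed for its assembly. It stood at 361, 331 and 111 FPKM in the normal group, 364, 399 and 147 with BBR, 226, 233 and 88.7 in the colitis group and 309.9, 294 and 117 with colitis and BBR. Within the mice numbered 1 to 3 both colitis mice lay below all 6 mice of the other groups, and among the mice numbered 4 the colitis mouse was again the lowest. Its log2 fold change in colitis was -0.50, with an SE of 0.59 without a block and 0.14 with it, and the adjusted p from limma was 0.609 and 0.0451. Leaving out each mouse in turn without a block moved the fold change from -1.05 (without normal mouse 4) to -0.046 (without colitis mouse 4), and with the block from -0.59 to -0.43. After centring on the median gene the fold change was -0.17. In colitis mice receiving BBR against colitis mice it was 0.40, with an unadjusted limma p of 0.014 and an adjusted p of 0.388 with the block.

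Cox7a1 had the largest log2 fold change of the 83 genes in colitis against normal. It stood at 470.1, 445 and 83 FPKM in the normal group, 407, 448 and 82.5 with BBR, 177, 59.7 and 32.9 in the colitis group and 399, 127 and 72.1 with colitis and BBR. The 2 lowest values belonged to colitis mice 4 and 2, but the groups overlapped, because normal mouse 4 lay below colitis mouse 1. Normal mice averaged 333 ± 217 FPKM and colitis mice 89.9 ± 76.7 FPKM (SD, n = 3 each). Colitis lay 3.68-fold below normal, with a log2 fold change of -1.88, an SE of 0.45 and a limma adjusted p of 0.0325 with the block, and an SE of 0.91 and an adjusted p of 0.25 without it. Leaving out each mouse in turn moved the log2 fold change from -2.70 to -1.33 without a block, and from -2.23 to -1.39 with it. The exact permutation test gave p = 0.2.

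Cox7a2, the ubiquitous partner of Cox7a1, stood at 507, 469 and 183 FPKM in the normal group, 498, 533 and 218 with BBR, 598, 361 and 217 in the colitis group and 519, 396 and 219.6 with colitis and BBR. The share of Cox7a1 in the sum of the pair was 48.1%, 48.7% and 31.2% in the normal group and 44.96%, 45.7% and 27.5% in the normal group with BBR. In colitis mice it was 22.9%, 14.2% and 13.2%, below each of the 6 normal mice. In colitis mice receiving BBR it was 43.4%, 24.3% and 24.7%, so that all 3 lay above the 3 colitis mice, mouse 3 by a small margin over colitis mouse 1. Both genes of the pair are short, and the share was lower in the mouse numbered 4 than in the others in each normal group.

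Markers of several other cell types also differed between colitis and normal mice. All 10 smooth muscle markers were lower in colitis (median log2 fold change -2.91), against 73.7% of all tested genes. All 10 passed the adjusted limit with the block, where 6.42% of all tested genes passed as lower. Their mean level on the log2(FPKM + 0.1) scale was 6.35 to 7.57 in normal mice, 2.22 to 5.39 in colitis mice and 4.31 to 7.58 in colitis mice receiving BBR, where the 7.58 belonged to mouse 4. In normal mice 4 without and with BBR the smooth muscle level was 7.57 and 8.21, the highest of their groups, while Cox7a1 was the lowest of its group in both. Within the colitis group, colitis mouse 1 had the lowest smooth muscle level, 2.22, and the highest Cox7a1. Cox7a1 was lower in the mice numbered 4 as a class, with a log2 difference of -2.03 from the others. Within the mice numbered 4 (normal, normal with BBR, colitis, colitis with BBR) the smooth muscle level was 7.57, 8.21, 5.39 and 7.58. Cox7a1 in the same mice stood at 83, 82.5, 32.9 and 72.1 FPKM. Adipocyte markers, of which 5 of 7 were tested, stood at 3.06 and 2.97 in colitis mice 2 and 3 receiving BBR and at 4.50 in normal mouse 4, and between -1.84 and 0.46 in the other 9 mice. Skeletal muscle markers, of which 7 of 12 were tested, stood at -0.84, -0.83 and -0.69 in colitis mice, below all 6 normal mice with and without BBR (-0.40 to 0.67), and at -0.86, -0.54 and -0.02 in colitis mice receiving BBR. Among them Ckm, the muscle creatine kinase, had a log2 fold change of -2.96 in colitis and a limma adjusted p of 0.00732 with the block, whereas Acta1, the skeletal muscle actin, had 1.59 and an adjusted p of 0.0713. Both were picked after their values were seen. The 12 granulocyte markers were all above 0 in colitis, at a median of 3.19 on the log2 scale, whereas 73.7% of all tested genes lay below 0. The part of these markers in the Cox7a1 result was not tested.

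**Figure D4:**
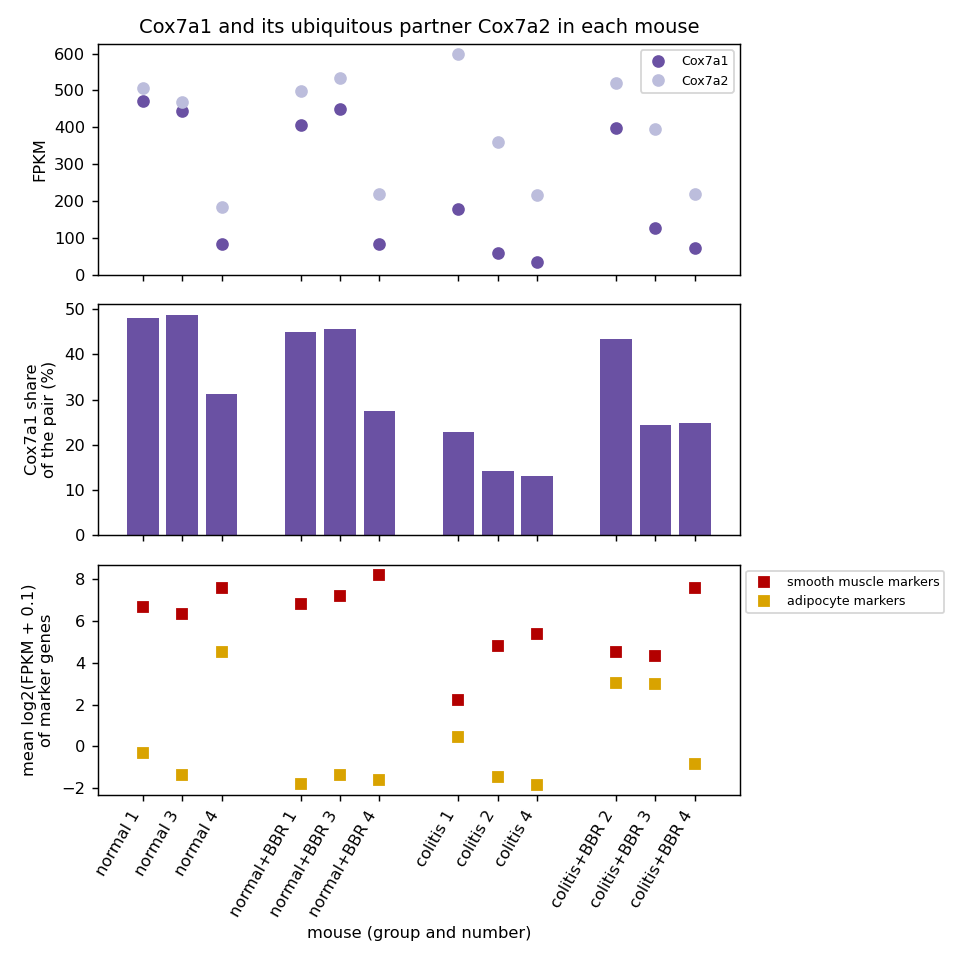
For each of the 12 mice (horizontal axis), the top panel shows Cox7a1 and Cox7a2 in FPKM, the middle panel the share of Cox7a1 in the sum of both (%), and the bottom panel the mean log2(FPKM + 0.1) of the smooth muscle and adipocyte markers. The share is 13.2% to 22.9% in the 3 colitis mice and 24.3% to 48.7% in the 9 others.

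The stretches of 150 bases before the start sites of Cox7a1, Cox7a2 and Ndufa1 are shown because the first and the third are the members with a call and the second is the partner against which the share was taken. They are from RefSeq (GRCm38.p6) and read 5′ to 3′ along the gene, with the last base next to the start site. The Cox7a1 stretch is chr7:30184021-30184170 (+ strand), the Cox7a2 stretch chr9:79759854-79760003 (− strand) and the Ndufa1 stretch chrX:37191239-37191388 (− strand).
Cox7a1: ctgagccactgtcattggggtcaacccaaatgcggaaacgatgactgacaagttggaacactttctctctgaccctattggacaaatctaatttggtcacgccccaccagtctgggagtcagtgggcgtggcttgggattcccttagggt
Cox7a2: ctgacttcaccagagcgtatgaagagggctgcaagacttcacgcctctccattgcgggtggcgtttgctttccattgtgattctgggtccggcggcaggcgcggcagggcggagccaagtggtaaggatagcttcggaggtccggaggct
Ndufa1: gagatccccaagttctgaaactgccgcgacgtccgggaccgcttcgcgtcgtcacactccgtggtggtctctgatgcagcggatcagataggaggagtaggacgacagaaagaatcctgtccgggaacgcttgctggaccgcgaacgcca

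The other tissue isoforms of complex IV were far scarcer than Cox7a1. Cox6a2 stood at 0.85, 0.52 and 0.26 FPKM in the normal group, 0.91, 0.88 and 0.37 with BBR, 0.17, 0.15 and 0.17 in the colitis group and 0.18, 0.17 and 0.26 with colitis and BBR. All 3 colitis mice lay below all 3 normal mice, but every colitis value was under the level of 3 reads on this transcript, which was 0.241 to 0.357 FPKM in those mice. Cox6a1, its ubiquitous partner, stood at 2619, 2187 and 954 FPKM in the normal group, 2406, 2677 and 879 with BBR, 2155, 1536 and 978 in the colitis group and 2375, 1622 and 993 with colitis and BBR, so that Cox6a2 made up at most 0.0421% of the pair in any mouse.

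Cox4i2, the hypoxia- and lung-associated form of subunit 4, stood at 2.3, 2.19 and 1.25 FPKM in the normal group, 0.92, 1.93 and 0.93 with BBR, 0.42, 1.04 and 0.6 in the colitis group and 0, 0.44 and 1.02 with colitis and BBR. Each colitis value lay below each normal value, and colitis mouse 2 receiving BBR is listed at 0. Its log2 fold change in colitis was -1.39 (SE 0.73) with a limma adjusted p of 0.279. Cox4i1, the common form, stood at 1234, 1096 and 564 FPKM in the normal group, 1062, 1249.7 and 553 with BBR, 1120.5, 648 and 623 in the colitis group and 909.8, 726 and 667 with colitis and BBR. Cox4i2 made up at most 0.221% of this pair.

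Cox8b, the muscle and brown fat form of subunit 8, stood at 2.73, 0 and 1.35 FPKM in the normal group, 1.66, 7.02 and 2.54 with BBR, 1.24, 3.79 and 0 in the colitis group and 5.89, 6.13 and 0.51 with colitis and BBR. It is listed at 0 in normal mouse 3 and colitis mouse 4, and the groups overlapped. Cox8a, its common form, stood at 2851, 2771 and 935 FPKM in the normal group, 3152, 3129 and 999 with BBR, 2544, 1629 and 1063 in the colitis group and 3231, 2208 and 1013 with colitis and BBR. Cox6b2, the testis form of subunit 6B, stood at 8.57, 3.25 and 4.8 FPKM in the normal group, 5.74, 4.19 and 2.6 with BBR, 2.52, 9.77 and 2.05 in the colitis group and 4.16, 2.31 and 2.04 with colitis and BBR, with overlap between all groups.

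Ndufa4 and Ndufa4l2 form a further pair. NDUFA4 was named as a complex I subunit and is now known to belong to complex IV, and NDUFA4L2 is its hypoxia-induced relative. Ndufa4 stood at 479.5, 383 and 159 FPKM in the normal group, 362, 465 and 157 with BBR, 365, 367 and 142 in the colitis group and 330.3, 289.9 and 145 with colitis and BBR. Ndufa4l2 stood at 1.7, 0.57 and 0.99 FPKM in the normal group, 0.89, 1.08 and 1.19 with BBR, 1.31, 0.53 and 1.5 in the colitis group and 0.68, 1.33 and 0.46 with colitis and BBR, between 0.144% and 1.05% of the pair, with no separation of the groups.

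Members with the largest remaining changes in colitis overlapped between the groups. Uqcrc1, a core protein of complex III, stood at 219, 185 and 147 FPKM in the normal group, 187, 211 and 109 with BBR, 132, 57.8 and 163 in the colitis group and 98.6, 67.9 and 176 with colitis and BBR. Its log2 fold change was -0.75 (SE 0.43), from -1.05 (without colitis mouse 4) to -0.31 (without colitis mouse 2) when each mouse was left out in turn. It was lower in both colitis mice numbered 1 to 3 but higher in colitis mouse 4 than in normal mouse 4. Ndufs4, an accessory subunit at the NADH-oxidising arm of complex I, stood at 58.6, 45.5 and 31.2 FPKM in the normal group, 45.1, 57 and 35.2 with BBR, 68.2, 44 and 47.5 in the colitis group and 44, 43.1 and 35.9 with colitis and BBR, with a log2 fold change of 0.26 (SE 0.27). Uqcrq, the small ubiquinone-binding subunit of complex III, stood at 167, 131 and 76.1 FPKM in the normal group, 143, 179.8 and 82.3 with BBR, 176, 126 and 111 in the colitis group and 190.3, 127 and 101 with colitis and BBR, with 0.19 (SE 0.37). Ndufa2 of complex I stood at 159.8, 135 and 68.4 FPKM in the normal group, 133, 181 and 87.5 with BBR, 171, 151 and 83.8 in the colitis group and 169, 122 and 76.3 with colitis and BBR, with 0.18 (SE 0.42). The largest of these 3 upward changes had a limma adjusted p of 0.559.

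BBR in colitis mice was the comparison in which an effect of BBR on inflamed tissue would show. None of the 83 genes passed the adjusted limit, and none passed the unadjusted limit without a block, while 1.19% of tested genes were higher and 5.2% lower at the latter. The limma fit called 0 of all tested genes at the adjusted limit, and 2 as lower with a block for the mice numbered 4, neither of them a member. No gene was higher in all 3 mice given BBR than in all 3 colitis mice and 1 was lower, Ndufs4, against 1.42% and 5.66% of tested genes. The median log2 fold change was -0.03 over the 83 genes and -0.09 over all tested genes, and 47 of the 83 lay below 0 against 62% of all tested genes. Quantile normalization and centring on the median gene moved the median of the 83 genes to 0.10 and 0.12, and the number below 0 under quantile normalization was 19, or 22.9%, against 44.9% of all tested genes. Leaving out each mouse in turn gave medians from -0.25 (without colitis mouse 2 receiving BBR) to 0.25 (without colitis mouse 1), and with the block from -0.25 to 0.17. Without colitis mouse 4 receiving BBR the median was 0.15, or -0.12 with the block, against -0.25 and -0.20 over all tested genes, and none of the 83 genes passed the adjusted limit. Cox7a2l and Cox4i2 then passed the unadjusted one as lower, against 9.54% of all tested genes. With the block Ndufb11 did so too, against 9.87%, and Ndufa1 passed it as higher, against 1.72%.

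Complex I and the other complexes lay close together under BBR in colitis. Medians of the log2 fold change were -0.04 over its 38 genes and -0.01 over the 45 genes of the other complexes. Without colitis mouse 4 receiving BBR they were 0.13 and 0.18, or -0.14 and -0.12 with the block. Ndufa1 and Cox7a1 reached the unadjusted limit with a block for the mice numbered 4, where 2.09% of tested genes did so as higher and 7.8% as lower. Cox7a1 had a log2 fold change of 1.13, an SE of 0.45, a limma p of 0.0301 and an adjusted p of 0.453. When each mouse was left out in turn, this fold change ran from 0.64 (without colitis mouse 2) to 1.64 (without colitis mouse 3 receiving BBR) with the block, with limma adjusted p of 0.081 to 1.00, and from 0.44 to 1.79 without a block. Among the mice numbered 1 to 3 and in the mouse numbered 4, both were higher under BBR only for Ndufa1 and Cox8b, and both were lower only for Ndufs4. Those are 2.41% and 1.2% of the 83 genes, against 4.49% and 15.9% of tested genes. With the block, the 95% interval of the log2 fold change lay within 1 either way for 37 of 38 complex I genes and 39 of 45 genes of the other complexes. Without the block this held for 17 and 19 genes, and without colitis mouse 4 receiving BBR for 29 and 31 genes with the block and 12 and 8 without it.

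The largest changes under BBR in colitis were in genes already given or in Cox7a2l. Cox7a2l, a relative of Cox7a2 counted here with complex IV by its symbol, stood at 270.01, 233 and 159 FPKM in the normal group, 239.7, 270.2 and 169 with BBR, 180.1, 118 and 151 in the colitis group and 93.2, 86.2 and 153 with colitis and BBR. Colitis mice 2 and 3 receiving BBR had the lowest levels of all 12 mice, while mouse 4 did not differ in the same way from the other mice numbered 4. The log2 fold change against colitis mice was -0.46 (SE 0.30), with a limma adjusted p of 0.964. Cox4i2 had -0.93 (SE 0.73), Cox6b2 had -0.45 (SE 0.57) and Cox8b had 1.82 (SE 1.48), all 3 from genes at no more than 9.77 FPKM in any mouse.

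BBR in normal mice asked whether BBR alone moves these transcripts. None of the 83 genes passed either limit, with or without a block, where 0.516% of tested genes passed the unadjusted limit as higher and 0.842% as lower without a block, and 1.02% and 1.41% with a block for the mice numbered 4. No gene separated the 3 mice given BBR from the 3 normal mice, against 4.17% of tested genes higher and 5.46% lower. The limma fit called 0 of all tested genes at the adjusted limit. The median log2 fold change was 0.07 over the 83 genes and -0.02 over all tested genes, and 20 of the 83 lay below 0 against 54% of all tested genes. That median was not stable, since leaving out each mouse in turn gave -0.30 (without normal mouse 4) to 0.42 (without normal mouse 4 receiving BBR), or -0.079 to 0.19 with the block. Complex I had a median of 0.08, with 32 of 38 genes above 0, and the other complexes had 0.04, with 31 of 45 above 0. In the mice numbered 1 to 3, 13 of the 83 genes were higher in both BBR mice than in both normal mice and 1 was lower, against 18.5% and 15.6% of all tested genes. In the pair of mice numbered 4, the mouse given BBR was higher for 58 of the 83 genes (69.9%), against 40.5% of all tested genes. Without a block the 95% interval lay within 1 either way for 18 of 38 complex I genes and 21 of 45 others, and with the block for 37 and 39.

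The largest differences among abundant genes were small in normal mice receiving BBR. Ndufb4, an accessory subunit of complex I, stood at 521, 459 and 186 FPKM in the normal group, 528, 622 and 247 with BBR, 465, 308 and 191 in the colitis group and 565, 272 and 209 with colitis and BBR, with a log2 fold change of 0.29 (SE 0.53). Uqcrb, a subunit of complex III near its ubiquinone site, stood at 1499, 1655 and 436 FPKM in the normal group, 1834, 1869.7 and 553 with BBR, 1528, 924 and 418 in the colitis group and 2231, 1010.2 and 468 with colitis and BBR, with 0.27 (SE 0.75). Both were higher under BBR in all 3 same-numbered pairs, and the groups overlapped through the mice numbered 4. They were named for their large increases in this comparison, so the pairs are no separate support. Higher without overlap in the mice numbered 1 to 3 and also in mouse 4 were 13.3% of the 83 genes, against 10.9% of all tested genes. With the replicate number as a block, none of the 83 genes passed the adjusted limit and none the unadjusted one. Among the scarce genes, Cox8b had 2.11 (SE 1.48), Cox4i2 -0.60 (SE 0.73) and Cox6b2 -0.36 (SE 0.57). Uqcrc1, an abundant member, had -0.16 (SE 0.43).

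Colitis mice receiving BBR against normal mice receiving BBR gave the DSS effect under treatment. None of the 83 genes passed the adjusted limit, where 0.0261% of tested genes passed as higher and 0.0131% as lower, or 0.346% and 1.4% with a block for the mice numbered 4. At the unadjusted limit 4 genes were lower (Cox4i2, Cox6a2, Cox7a2l and Ndufb11) and none higher, against 17.3% and 2.37% of tested genes. The median log2 fold change was -0.28 over the 83 genes and -0.40 over all tested genes, and 81 of the 83 lay below 0 against 80.1% of all tested genes. Centring on the median gene moved the median of the 83 genes to 0.17, whereas quantile normalization gave -0.20 against -0.03 over all tested genes, with 74 of the 83 below 0 (89.2%) against 52.7% of all tested genes. Leaving out each mouse in turn gave medians of -0.70 to -0.036. Without colitis mouse 4 receiving BBR the median was -0.12, against -0.55 over all tested genes, and Cox4i2 and Cox7a2l fell past the adjusted limit, 2.41% of the 83 genes against 13.1% of all tested genes. With the block and without that mouse the median was -0.38, and Cox6a2 and Ndufb11 passed as lower as well, 4.82% against 13.2%. All 3 colitis mice receiving BBR lay below all 3 normal mice receiving BBR for 6 genes and above them for none, against 18% and 2.26% of tested genes. In the mice numbered 1 to 3 the 2 colitis mice receiving BBR lay below both normal mice receiving BBR for 49 of the 83 genes, against 58.8% of all tested genes, and in the mice numbered 4 the former was lower for 39 genes, or 47%, against 57.2% of all tested genes.

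Cox7a2l had the lowest p of the 83 genes in this comparison. Its log2 fold change was -1.05 (SE 0.30), with a limma adjusted p of 0.214, and all 3 colitis mice receiving BBR lay below all 3 normal mice receiving BBR, mouse 4 by a small margin. In the 8 mice numbered 1 to 3 alone, Cox7a2l and Cox6a2 fell past the adjusted limit with limma adjusted p of 0.0296 and 0.0323, where 13.5% of tested genes passed as lower. This Cox6a2 call, and that with the block without colitis mouse 4 receiving BBR, rest on 0.18 and 0.17 FPKM in colitis mice 2 and 3 receiving BBR. Both values lie under the level of 3 reads, 0.3625 FPKM. Ndufb11, an X-linked accessory subunit of complex I, stood at 226, 176 and 131 FPKM in the normal group, 170.2, 220.1 and 152 with BBR, 187, 130.03 and 138 in the colitis group and 112, 102 and 139 with colitis and BBR. Its log2 fold change was -0.62 (SE 0.25), with a limma adjusted p of 0.238. Cox4i2 had -1.71 (SE 0.73), from -2.47 (without colitis mouse 4 receiving BBR) to -0.73 (without colitis mouse 2 receiving BBR) when each mouse was left out in turn. Cox7a1 had -0.68 (SE 0.91), from -1.47 (without normal mouse 4 receiving BBR) to -0.13 (without colitis mouse 4 receiving BBR). Atp5k, the e subunit of the ATP synthase, stood at 895, 669.8 and 171 FPKM in the normal group, 679, 858 and 181 with BBR, 833, 623 and 231 in the colitis group and 807, 635 and 212 with colitis and BBR, with 0.01 (SE 0.79), and Uqcrq had 0.07 (SE 0.37).

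The interaction of BBR and colitis, which asks whether BBR acted differently in colitis mice than in normal mice, gave no member past either limit. At the unadjusted limit 0.699% of tested genes had a positive interaction and 1.72% a negative one, and the limma fit called 0 genes at the adjusted limit. The median was -0.08 over the 83 genes and -0.08 over all tested genes, and 59 of the 83 (71.1%) lay below 0 against 58.9% of all tested genes. With quantile normalization 41 (49.4%) lay below 0 against 48.4%, and with the replicate number as a block 40 (48.2%) against 59%. Leaving out each mouse in turn moved the median from -0.45 to 0.27, and it was 0.097 without colitis mouse 4 receiving BBR, or -0.18 with the block. The largest value belonged to Cox7a1 at 1.197 (SE 1.28), followed by Ndufb4c at 0.28 (SE 1.79) and Ndufa1 at 0.17 (SE 0.83). The Cox7a1 value ran from 0.41 (without normal mouse 4 receiving BBR) to 2.02 (without normal mouse 4) when each mouse was left out, and from 0.71 to 1.71 with the block for the mice numbered 4. The lowest were Cox7a2l at -0.50 (SE 0.43), Ndufa4l2 at -0.46 (SE 0.70) and Ndufb11 at -0.41 (SE 0.36). Ndufb4c, a further copy of Ndufb4, stood at 226, 223 and 20.6 FPKM in the normal group, 231, 229.7 and 20.1 with BBR, 184, 94.8 and 19.9 in the colitis group and 248, 113 and 22.7 with colitis and BBR, and reads of the 2 genes may have been split between them, so its values are uncertain.

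Complex I was set beside the other complexes within each mouse, because BBR inhibits it. The mean log2(FPKM + 0.1) of the 38 complex I genes minus that of the 45 other genes was -1.15, -1.06 and -1.12 in normal mice, and -1.15, -1.09 and -1.06 in normal mice receiving BBR. The difference was -1.01, -1.02 and -0.88 in the colitis group and -1.01, -1.01 and -1.07 with colitis and BBR. The colitis mice lay above the normal mice, with means of -0.97 ± 0.07 and -1.11 ± 0.04 (SD, n = 3 each). Without the 4 tissue isoforms Cox4i2, Cox6a2, Cox7a1 and Cox8b, a choice made after seeing the data, the means were -1.65 ± 0.05 in colitis mice, -1.66 ± 0.05 in colitis mice receiving BBR, -1.72 ± 0.02 in normal mice and -1.68 ± 0.07 in normal mice receiving BBR. With Ndufa4 also moved to complex IV and Ndufa4l2 also left out, a further choice made after seeing the data, they were -1.49 ± 0.04, -1.48 ± 0.02, -1.55 ± 0.01 and -1.50 ± 0.06 in the same order. The 2 BBR groups overlapped with the untreated group of the same kind in all 3 versions. No test was run on these means, since the genes were chosen with earlier results known.

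**Figure D5:**
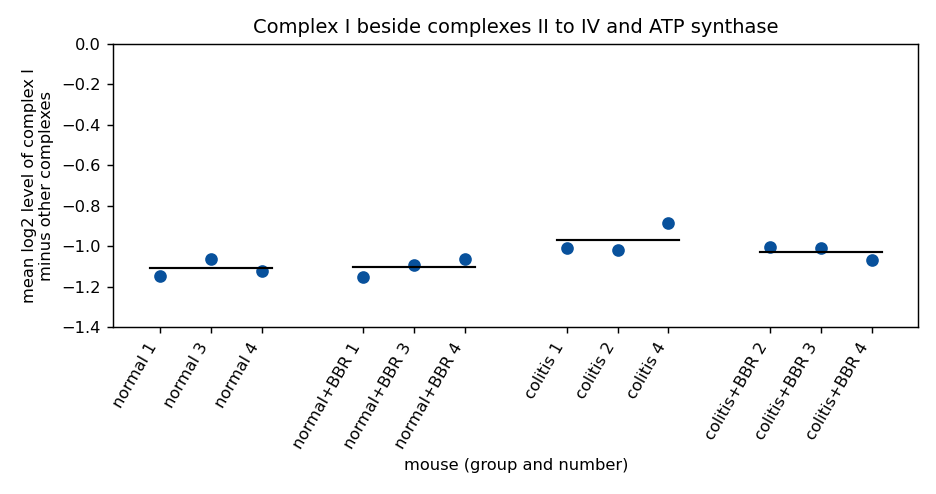
For each of the 12 mice (horizontal axis), points show the mean log2(FPKM + 0.1) of the 38 complex I genes minus that of the 45 genes of the other complexes; black lines are group means. All mice lie between -1.15 and -0.88, and the colitis mice lie above the 6 normal mice with and without BBR.

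Genes that work with the respiratory chain were counted from lists. All 18 citric acid cycle genes lay below 0 in colitis against normal, as did 73.7% of all tested genes, at a median of -0.59 (-0.32 over all tested genes). None passed the adjusted limit, and 2 of them were lower at the unadjusted one, below the share of all tested genes (15.9%). These were Idh3a, the catalytic subunit of NAD-dependent isocitrate dehydrogenase, at -1.25 and Sucla2, a succinyl-CoA ligase subunit, at -0.62. All 14 regulators of mitochondrial genes lay below 0, with a median of -0.68, and 3 were lower at the unadjusted limit (Ppargc1a, Esrrg and Ppara), against the same 15.9%. Ppargc1a, the coactivator PGC-1α, had -2.28 and a limma adjusted p of 0.183, and Esrrg, an estrogen-related receptor, had -1.90 and an adjusted p of 0.0657, or 0.0316 with the block. In the pair of mice numbered 4 the mean log2(FPKM + 0.1) of the citric acid cycle genes was 6.17 in colitis and 6.21 in normal. That of the regulators was 2.98 and 3.33. Colitis mouse 2 had the lowest level of all 12 mice for both lists, 5.25 and 1.81.

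The assembly factors had smaller medians. All 14 assembly factors of complex I lay below 0 in colitis, against 73.7% of all tested genes, with a median of -0.31, and none passed a limit. Of the 31 assembly factors of the other complexes 29 lay below 0, with a median of -0.27, and 4 were lower at the unadjusted limit, again below the 15.9% of all tested genes, led by Lyrm7 at -1.08 and Sco2 at -1.01. Among the 4 of 6 tested subunits and carriers that the symbol rule leaves out, Cyc1, the cytochrome c1 of complex III, had -0.71 and Cycs, cytochrome c, had 0.58. The 78 mitochondrial ribosomal protein genes had a median of -0.24, and the 12 genes of the outer membrane and protein import had -0.35, with 1 lower at the unadjusted limit, Vdac3 at -0.79, below the share of 15.9%. Of the 5 uncoupling and hypoxia genes tested, 1 was higher, Hif1a at 0.59, and 1 was lower, Epas1 at -0.58, at the unadjusted limit, against 5.56% and 15.9% of all tested genes. In the pair of mice numbered 4, however, the colitis mouse lay above the normal mouse in mean log2(FPKM + 0.1). The levels were 3.19 against 3.03 for complex I assembly and 3.78 against 3.73 for the other assembly factors. They were 4.78 against 4.50 for the mitochondrial ribosome and 6.10 against 5.85 for outer membrane and import. For the same lists colitis mice 1 and 2 lay below normal mice 1 and 3.

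Under BBR in colitis these lists had medians near 0, apart from the cytosolic ribosome. Median values were 0.07 over the citric acid cycle, 0.06 over the regulators, where Esrrg at 1.12 was the 1 gene higher at the unadjusted limit (1.19% of all tested genes), -0.09 over the complex I assembly factors and -0.14 over the mitochondrial ribosome. The 48 cytosolic ribosomal protein genes all lay below 0, with a median of -0.69 against -0.09 over all tested genes. Of these 48 genes, 7 were lower at the unadjusted limit without a block, against 5.2% of all tested genes, and 40 with one, against 7.8%, and none passed the adjusted limit. Without colitis mouse 4 receiving BBR the medians were -0.07, -0.20, -0.30 and -0.16 over the first 4 of these lists, against -0.25 over all tested genes, and no regulator passed the unadjusted limit. The cytosolic ribosomal protein genes then had a median of -0.67, with 47 of 48 below 0, and 9 were lower at the unadjusted limit, or 46 with the block, against 9.54% and 9.87% of all tested genes.

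Promoter windows were searched for the motifs of factors known to act on respiratory chain genes. RefSeq windows from 250 bases before to 50 bases after the start site (GRCm38.p6) were found for 67 of the 83 genes, and 4 motifs were searched on both strands by exact letters. The motif of NRF1 (nuclear respiratory factor 1), the 4 bases GCGC followed by any base and then TGCGC, was in 17 of the 67 windows, or 25.4%, against 5.19% of 27025 genes. It was in 7 of 32 complex I windows and 10 of 35 others. The motif of YY1, AAGATG followed at once by GCGGC, was in 4 windows, all of complex I (Ndufa9, Ndufs4, Ndufs6 and Ndufs7), against 0.755% of all genes. The estrogen-related receptor motif TCAAGGTCA was in Sdhd and Atp5g3, and the GABP motif CCGGAAGTG in Ndufs3 and Uqcrh, against 0.466% and 2.25% of all genes. None of the 4 motifs was in the windows of Cox7a1, Cox7a2 or Ndufa1. A match describes letters in a window and not a bound site.

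Stretches around 1 NRF1 match each are shown for Sdha and Ndufb4, which had 3 matches each, the most of any member, with the match in capitals, which reads as the motif on the opposite strand. They lie at chr13:74350289-74350378 and chr16:37654510-37654599 (GRCm38.p6, − strand), before the start sites.
Sdha: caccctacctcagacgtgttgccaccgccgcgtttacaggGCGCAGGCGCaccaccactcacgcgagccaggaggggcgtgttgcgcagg
Ndufb4: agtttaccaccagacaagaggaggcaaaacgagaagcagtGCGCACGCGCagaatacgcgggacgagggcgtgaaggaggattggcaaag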

How the data were processed

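Rectal RNA of 12 mice was sequenced by the authors, and 1 deposited value per gene and mouse was read as FPKM from the values and the RSEM estimation, since the table does not name its unit. According to the methods and processing notes, reads of 50 bases were filtered with SOAPnuke 1.5.2, aligned with Bowtie2 2.2.5 and quantified with RSEM 1.2.12, with the build mm9 named in the notes. The methods and the labels name different library kits and sequencers. The mice were grouped by their labels.

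The 15315 of 17734 genes with a mean of at least 0.1 FPKM were transformed to log2(FPKM + 0.1), which understates the change of low genes, and fitted with limma 3.58.1 (R 4.3.3), with trend and 1 mean for each of the 4 groups. Benjamini-Hochberg adjustment covered every tested gene. Nothing says whether the mice of a group shared a cage or litter, so p-values measure the spread between these mice. No counts are in the table; depth was estimated from the steps of low values of 1203 single-transcript genes, and 3 reads on 2000 bases were worth 0.0761 to 0.125 FPKM, which covers counting error only. The fit was also run on simulated data, in which the planted changes were larger than most of those given here. That run therefore cannot show how well changes of this size are found. Figures were made with matplotlib 3.10.9 in Python 3.11.15.

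The members and lists were chosen with earlier results of these data known. Named genes were, per comparison, the 3 highest and 3 lowest log2 fold changes among members with a mean of at least 1 FPKM, members past the adjusted limit and the isoform pairs. Alternatives were pseudocounts of 1 and 0.01, a mean filter of 1 or none, quantile normalization, median centring, the compared groups alone, no trend, each mouse left out, and blocks for the replicate number or for the mice numbered 4. Same-numbered mice of the 2 normal groups deviated together (correlations of 0.29, 0.109 and 0.657), each over the 0.1 set as the limit for pairing, but normal mouse 1 with BBR mouse 3 (0.366) and normal mouse 3 with BBR mouse 1 (0.456) correlated more, so only number 4 was set apart; other comparisons share only 2 numbers.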

Additional observations from a re-analysis of the deposited data

How the results depend on the processing

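Of 172 counts and medians recomputed over the 83 genes under the alternatives named in the methods that leave out no mouse, 161 stayed within 1.5 times the count or within the spread between mice, as did 21 of 30 under settings chosen after seeing the data. That spread was a pooled SD of 0.559 for the mean log2 level and 0.0518 for complex I minus the other complexes. The former includes the gap between the mice numbered 4 and the others, so it is a wide limit for the medians. The 11 that moved under the named alternatives were all counts. By the SD of 0.559 the medians that leave out 1 mouse also count as unmoved, although in every comparison except colitis with BBR against normal with BBR they crossed 0. Median centring nevertheless put the medians above 0 in 4 comparisons: 0.09 for DSS in untreated mice, 0.17 for DSS under BBR, 0.12 for BBR in colitis mice and 0.034 for the interaction. In the comparisons with a count of 0 at the adjusted limit, that count became 2 in colitis against normal with a block for the mice numbered 4, alone or with quantile normalization, and 2 in colitis with BBR against normal with BBR in the 8 mice numbered 1 to 3. The number of members at the unadjusted limit in colitis against normal, 1, became 2 with a pseudocount of 1, 0 with a mean filter of 1 or with median centring, 3 with the compared groups alone, 4 with the replicate block, 3 with a block for the mice numbered 4, 4 with that block and quantile normalization (3 lower and 1 higher), and 6 in the mice numbered 1 to 3. Of all tested genes 18.7%, 24.8%, 14% and 27.4% were lower in these last 4 settings, against 4.82%, 3.61%, 3.61% and 7.23% of members. The 1 higher member was 1.2% of members, against 12.7% of all tested genes higher in that setting. In colitis with BBR against colitis it was 0 and became 2 with the replicate block, 2 with the block for the mice numbered 4 (with or without quantile normalization) and 2 in the mice numbered 1 to 3. With either block both were higher, 2.41% of members against 2.02% (replicate) and 2.09% (number 4) of all tested genes. With the latter block and quantile normalization both were again higher, 2.41% of members against 5.32% of all tested genes. In the mice numbered 1 to 3, 1 was higher and 1 lower, each 1.2% of members, against 1.21% and 6.21% of all tested genes. In colitis with BBR against normal with BBR it was 4 and became 0 with median centring, 2 with the replicate block, 7 with the block for the mice numbered 4 and quantile normalization, and 12 in the mice numbered 1 to 3, where 19.4%, 9.4% and 35.3% of all tested genes were lower in these last 3 settings, against 2.41%, 8.43% and 14.5% of members. The interaction count of 0 became 1 (higher) with the block for the mice numbered 4 and quantile normalization, 1.2% of members against 2.8% of all tested genes. The settings with the block for the mice numbered 4 together with another choice, and the mice numbered 1 to 3 alone, were chosen after seeing the data. The cause of these moves was not tested, except that fewer mice or genes entered where the setting says so.

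In the mice numbered 1 to 3 alone, Uqcrq (-0.045) and Atp5k (-0.093) reversed in colitis with BBR against normal with BBR, and Ndufa4l2 (0.19) in the interaction. The replicate block changed no call at the adjusted limit among the 83 genes. Same-numbered mice had a mean correlation of 0.34 (0.0777 to 0.751, 13 pairs) against -0.10 for different numbers (41 pairs), led by the mice numbered 4.

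Leaving out each mouse in turn, without a block, gave 0 to 5 members at the unadjusted limit in colitis against normal, 0 to 2 in colitis with BBR against colitis and 2 to 8 in colitis with BBR against normal with BBR, where 0 to 2 passed the adjusted limit, the 2 only without colitis mouse 4 receiving BBR (Cox4i2 and Cox7a2l). With the block for the mice numbered 4 these ranges were 2 to 7, 1 to 5 and 2 to 12 at the unadjusted limit (9 without normal mouse 4 receiving BBR), with 0 to 1 in normal with BBR against normal and 0 to 1 in the interaction, and 0 to 1 members (colitis against normal) and 0 to 4 members (colitis with BBR against normal with BBR) past the adjusted limit, the 4 again without colitis mouse 4 receiving BBR. In every one of these fits the share of members at the unadjusted limit was no higher than that of all tested genes, which ran without a block from 14% to 31.4%, 3.24% to 10.9% and 9.44% to 38.6% in the first 3 comparisons, and with the block from 19.5% to 31.3%, 4.88% to 15.4% and 17.2% to 37.9%. Without changing sign, other values moved by over 1.5 times without a block: Ndufs4 (0.017 to 0.47) in colitis against normal, Cox8b (0.31 to 2.95) and Cox7a2l (-0.72 to -0.30) in colitis with BBR against colitis, Cox8b (0.66 to 3.08) and Cox4i2 (-0.93 to -0.43) in normal with BBR against normal, and Cox7a2l (-0.76 to -0.28), Ndufa4l2 (-0.88 to -0.11) and Ndufb11 (-0.60 to -0.21) in the interaction. Named genes that changed sign when 1 mouse was left out without a block were Ndufa2 (-0.19 to 0.49) and Uqcrq (-0.13 to 0.43) in colitis against normal, Cox4i2 (-1.68 to 0.060), Cox6b2 (-0.86 to 0.24) and Ndufa1 (-0.059 to 0.85) in colitis with BBR against colitis, Cox6b2 (-0.68 to 0.0082), Ndufb4 (-0.18 to 0.69), Uqcrb (-0.35 to 0.85) and Uqcrc1 (-0.34 to 0.13) in normal with BBR against normal, Atp5k (-0.68 to 0.60) and Uqcrq (-0.25 to 0.31) in colitis with BBR against normal with BBR, and Ndufa1 (-0.29 to 0.72) and Ndufb4c (-0.89 to 1.42) in the interaction. With the block, those that changed sign were Cox4i2 (-1.84 to 0.088) and Cox6b2 (-0.86 to 0.16) in colitis with BBR against colitis, Uqcrc1 (-0.43 to 0.30, also 0.021) in normal with BBR against normal, Atp5k (-0.058 to 0.13, also -0.047, -0.050 and -0.056) and Uqcrq (-0.069 to 0.24, also -0.031) in colitis with BBR against normal with BBR, and Ndufb4c (-0.052 to 0.63) in the interaction.

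Depth limits the scarce isoforms: at the lengths of Cox6a2 and Cox8b, 3 reads were worth 0.241 to 0.396 and 0.49 to 0.803 FPKM, so differences among their lowest values were not detectable at this depth. Cox4i2 in colitis mice 2 and 3 receiving BBR, listed at 0 and at 0.44 FPKM, lies below and just above its level for 3 reads, 0.336 FPKM, and its call without mouse 4 of that group rests on these 2 values.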
